A study of Mus musculus with 18 samples.

Results

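The postnatal maturation of the mouse renal medulla was followed by setting the medulla at P20, P30 and P90 against the medulla at P6, P8 and P10, where P counts days after birth. The members are the 6 medulla arrays of these ages, of 18 arrays in all. They were chosen by their labelled region and age alone, and 8901 of the 17711 annotated genes passed a filter on level and were compared. All animals were male CD1 mice, an outbred stock with no induced mutation and no treatment. The later group holds 1 medulla array each at P20, P30 and P90, and the earlier group 1 each at P6, P8 and P10. The other 12 arrays are medulla at P0, P2 and P4 and cortex at all 9 ages. Each Illumina bead array was hybridised with RNA pooled from 4 animals. The ages of a group therefore serve as its replicates, and the spread within a group holds differences between ages but no measured spread between animals. The labels name the tissue as medulla, and the series title adds papilla; how the inner and outer zones were divided between dissections is not given in the sources used here.

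The medulla holds loops of Henle, collecting ducts and the straight vessels called vasa recta. The thick ascending limb pumps salt out of the tubule, urea accumulates in the inner zone, and vasopressin opens water channels in the collecting duct so that water leaves the urine. Newborn rodents concentrate urine poorly, and this capacity develops during the weeks around weaning, as the papilla grows and the loops lengthen. The outermost medullary stripe also holds straight proximal tubule, so genes of that segment are part of a medulla dissection.

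Values are normalized log2 intensities, so that a difference of 1 is a 2-fold change. A gene was tested if a probe of it read above the 75th percentile of its array, called the level below, on at least 3 of the 18 arrays; these levels lay between 8.28 and 8.37. On the 6 medulla arrays 82.7% to 87.5% of the 8901 genes tested were above the level. Pearson's r across genes, which are not independent replicates, was 0.941 to 0.985 within P20 to P90, 0.990 to 0.993 within P6 to P10 and 0.838 to 0.950 between the groups, so the later arrays were the more varied. The medulla markers Aqp2, Slc14a2, Slc12a1, Umod and Cryab were above the level on all 6 arrays. Of 7 skeletal muscle genes none was above the level on any medulla array, and of 9 adrenal genes 8 were not. Of the brown fat genes Ucp1 read 8.53, 8.97 and 8.55 at P20, P30 and P90, against 9.02, 9.55 and 10.87 at P6, P8 and P10. Its difference of -1.13 did not pass (limma adjusted p = 0.0804), while Cox7a1 of the same list rose by 0.88 (adjusted p = 0.00228). Without P6 Ucp1 was called lower (-1.52, adjusted p = 0.0424). Added up on the linear scale, the 10 brown fat genes on the array overlapped between groups, at 4360 to 4753 at P20 to P90 and 3657 to 5445 at P6 to P10. The blood gene Hba-a1 read 15.25, 14.76 and 13.85 at P20, P30 and P90, against 14.72, 14.89 and 14.60 at P6, P8 and P10. The part of such tissue in the results was not tested. In bulk tissue fewer cells of a type and less RNA per cell cannot be told apart.

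Of the 8901 genes, 3525 (39.6%) were called: 1527 (17.2%) were higher and 1998 (22.4%) were lower in the medulla at P20 to P90 than at P6 to P10 (limma, Benjamini-Hochberg adjusted p below 0.05). At least 2-fold, 241 (2.71%) were higher and 276 (3.1%) lower, and over all genes the median log2 difference was -0.02. These counts depended on single arrays. Without the P6 array 2122 genes were called in all, without P8 2148, without P10 2372, without P30 2251 and without P90 2637. Without P20 the count rose to 4571, against 3525 with all arrays. Exact permutation of 3 against 3 arrays cannot give a two-sided p below 0.1, so single genes rest on the spread that limma shares across genes.

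Promoters of 2 cell cycle genes that fell are shown first, because many members of that list hold short motifs. Both were picked by size of fall among called genes whose promoters hold both motifs marked below. The matches in them were therefore set by the choice. The promoters run from 250 bases before to 50 bases after the transcription start in RefSeq (build GRCm38.p6), 5′ to 3′ on the strand of the gene. Capitals mark CCAAT, the pentamer known to bind NF-Y, and TTTGAA, the element known as CHR that recurs in promoters of genes used in G2 and mitosis, on either strand. Prc1, which encodes an organizer of the spindle midzone, lies at chr7:80294201-80294500 (plus strand), and Cdk1, which encodes the kinase that drives entry into mitosis, at chr10:69352863-69353162 (minus strand).
Prc1: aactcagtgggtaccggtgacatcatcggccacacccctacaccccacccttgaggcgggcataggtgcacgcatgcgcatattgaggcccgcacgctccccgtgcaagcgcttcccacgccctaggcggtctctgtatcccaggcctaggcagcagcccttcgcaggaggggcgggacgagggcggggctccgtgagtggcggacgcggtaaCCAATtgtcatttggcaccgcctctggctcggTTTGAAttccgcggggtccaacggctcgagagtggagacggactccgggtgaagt
Cdk1: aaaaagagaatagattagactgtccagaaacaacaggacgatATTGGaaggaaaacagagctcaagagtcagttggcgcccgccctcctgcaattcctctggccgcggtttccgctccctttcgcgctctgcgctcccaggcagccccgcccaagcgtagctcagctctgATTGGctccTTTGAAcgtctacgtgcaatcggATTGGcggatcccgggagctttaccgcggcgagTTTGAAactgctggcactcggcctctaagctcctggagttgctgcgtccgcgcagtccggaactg
CCAAT, searched on both strands, was present in 16 of the 20 cell cycle promoters found (80.0%), against 38.2% of the 7239 promoters of tested genes. TTTGAA was in 9 of the 20 (45.0%), against 11.6% of all. None of the marked matches overlapped another in the promoters shown. These are matches of letters and not measured binding.

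The largest rises were of enzymes and secreted proteins of adult tubules. Cyp4b1-ps2, annotated as a pseudogene of the cytochrome P450 gene Cyp4b1, read 11.24, 13.91 and 14.35 at P20, P30 and P90, against 8.22, 8.26 and 8.30 at P6, P8 and P10. The groups lay far apart, with P20 lowest of the later ages, and the difference was 4.90 on the log2 scale (SE 0.74, limma adjusted p = 0.0041); whether the probe separates it from related genes was not tested. Dnase1, the secreted nuclease found in urine, read 12.28, 13.35 and 13.59 at P20, P30 and P90, against 8.48, 8.72 and 8.76 at P6, P8 and P10. Its rise of 4.42 (SE 0.32, adjusted p = 0.000847) was for the most part present at P20. Guca2b, which encodes the salt-regulating peptide uroguanylin, read 11.71, 13.52 and 13.04 at P20, P30 and P90, against 8.40, 8.42 and 8.18 at P6, P8 and P10, a rise of 4.42 (SE 0.42, adjusted p = 0.00153). Cyp2e1, an ethanol-inducible P450, rose by 4.46 (SE 0.71, adjusted p = 0.00467).

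Other genes among the 15 largest rises were Nat8, an acetyltransferase that makes mercapturic acids in the proximal tubule (3.73), the carboxylesterase gene Ces1d (3.36), the peroxisomal and mitochondrial genes Mpv17l (3.30), Eci3 (3.24) and Nudt19 (2.96), the brush border trehalase gene Treh (3.23) and the urate transporter gene Slc22a12 (2.82). Inmt, a methyltransferase gene, rose by 3.96, Cyp2a4 by 3.11 and Ces1f by 2.84, with most of the increase after P20. Inmt read 9.41, 13.43 and 14.56 at P20, P30 and P90, against 8.38, 8.49 and 8.65 at P6, P8 and P10. The calls of these 3 genes were lost when any single array other than P20 was left out, with adjusted p up to 0.119 for Inmt without P30, 0.101 for Cyp2a4 without P30 and 0.113 for Ces1f without P30. Cyp2a4 and Ces1f were above the level on no earlier array, so the means of their later arrays were at least 8.14-fold and at least 5.03-fold higher. These bounds are for the means and not for P20 alone.

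The largest falls were of growth regulators, stroma and histones. Cdkn1c, an imprinted gene whose product p57 blocks the cell cycle and which is also a podocyte gene, read 11.42, 10.18 and 9.56 at P20, P30 and P90, against 14.32, 14.43 and 14.26 at P6, P8 and P10. It fell by 3.95 (SE 0.42, adjusted p = 0.00186), which is 15.5-fold, and fell further at each later age. Mmp2, a gelatinase of fibroblasts, read 10.21, 9.25 and 8.67 at P20, P30 and P90, against 12.45, 12.55 and 12.51 at P6, P8 and P10, and fell by 3.12 (SE 0.35, adjusted p = 0.00196). Acta2, smooth muscle actin, read 11.15, 10.14 and 9.95 at P20, P30 and P90, against 13.42, 13.33 and 12.75 at P6, P8 and P10, and fell by 2.75 (SE 0.33, adjusted p = 0.00232). In none of these genes did the groups overlap, and over all genes tested the groups did not overlap in 55.9%. Nrep, a gene of growing and regenerating tissue, changed by -3.44, the growth cone gene Basp1 by -3.17, the serine protease gene Htra3 by -3.16, the follistatin-like gene Fstl1 by -3.15, Thy1, a surface protein of fibroblasts and neurons, by -2.65, Ccdc80 by -2.62 and Maged2, whose loss causes transient salt wasting before birth in humans, by -2.57. Other kept probes gave smaller falls for Htra3 (-0.67) and Fstl1 (-0.51).

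**Figure D1:**
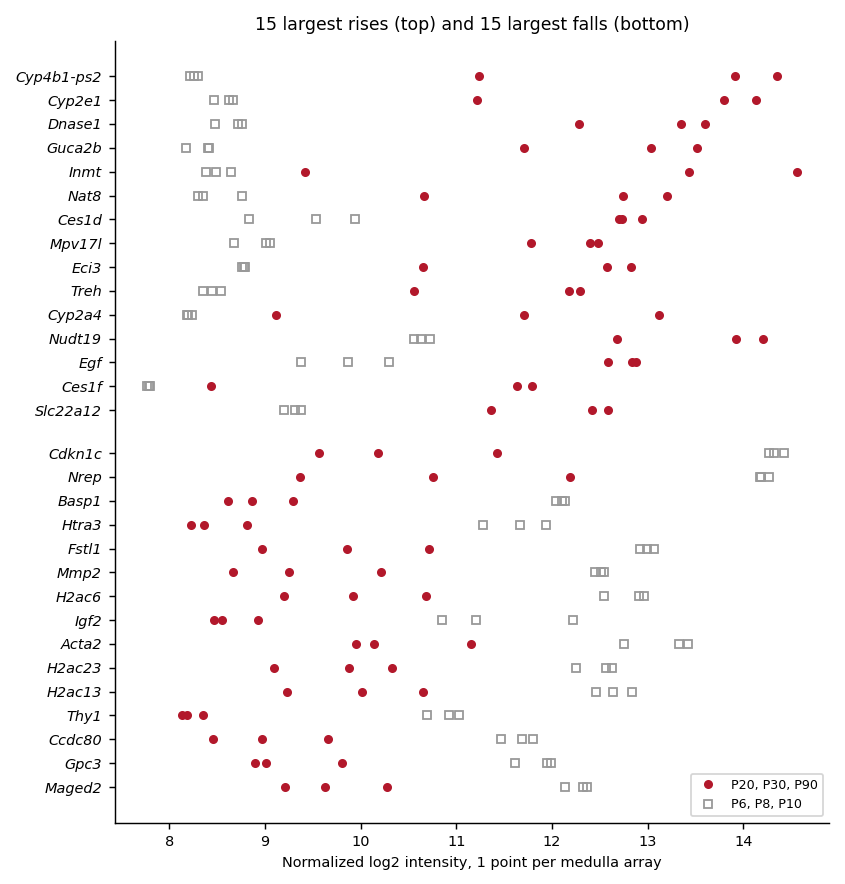
Normalized log2 intensity (horizontal axis) of the 15 largest rises and 15 largest falls among genes whose groups do not overlap, with 1 point per medulla array; filled circles are P20, P30 and P90 and open squares P6, P8 and P10. Cyp4b1-ps2 at the top differs by 4.90 and Cdkn1c, first of the falls, by -3.95, and in most rows the circles are spread more widely than the squares.

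Lists of genes of 60 cell types, pathways and functions were counted next, and 660 of their 898 genes on the array were tested. Against the background of 17.2% higher and 22.4% lower, the 3 lists with the greatest shares of lower genes were smooth muscle and pericyte (8 of 9), extracellular matrix (21 of 24) and cell cycle (20 of 24), and the 3 with the greatest shares of higher genes were organic ion transport (9 of 11), proximal tubule (20 of 25) and oxidative phosphorylation (13 of 19). Lists that name the concentrating function itself had medians between -0.32 and 0.27 and differed in direction. Thick ascending limb had 5 of 15 genes higher and none lower, and intercalated cells 3 of 10 higher and none lower. The water and urea, vasopressin, thin limb, principal cell and osmoprotection lists held calls both ways.

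**Figure D2:**
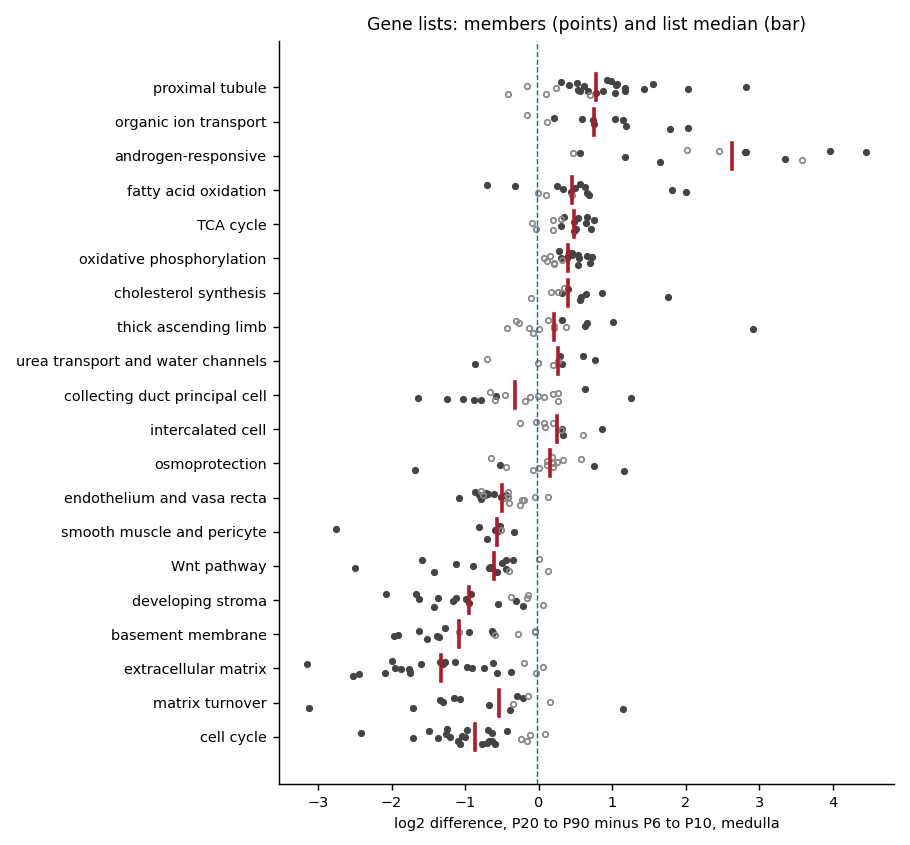
Log2 difference in the medulla, P20 to P90 minus P6 to P10 (horizontal axis), for the tested members of 20 lists; filled points were called, open points were not, the bar is the list median and the dashed line the median of all genes, -0.02. Proximal tubule lies to the right (median 0.78) and extracellular matrix to the left (median -1.32), while water, urea and principal cell genes straddle the line.

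Water channels and urea transporters were mixed. Of 9 genes tested 4 were higher and 1 lower, with a median of 0.27. Aqp2, the vasopressin-regulated water channel of principal cells, read 12.59, 11.21 and 11.35 at P20, P30 and P90, against 11.54, 11.15 and 11.88 at P6, P8 and P10. The groups overlapped, P20 stood above every other array, and the difference of 0.19 (SE 0.37, limma adjusted p = 0.707) did not pass. Aqp3 and Aqp4, the basolateral channels through which that water leaves the cell, differed by 0.27 and 0.00 (adjusted p = 0.122 and 0.992), also with their highest values at P20. Slc14a2, which encodes the UT-A urea transporters of the thin limb and inner collecting duct, read 12.27, 11.19 and 10.80 at P20, P30 and P90, against 12.25, 12.01 and 12.09 at P6, P8 and P10. P20 was at the earlier level and P30 and P90 lay below it, and the difference of -0.70 (SE 0.34, adjusted p = 0.148) was called without the P20 array (-1.12, adjusted p = 0.000235). Slc14a1, the urea transporter UT-B of the vasa recta and red cells, differed by -0.87 (adjusted p = 0.0231), a call lost without P6, P10, P30 or P90. Aqp11, an intracellular channel of proximal cells, rose by 0.61 (SE 0.12, adjusted p = 0.00784), and Aqp7, Aqp6 and Aqp1 were called with differences of 0.76, 0.32 and 0.29 that failed without single arrays; the 4 higher calls became 1 without P6, P8 or P90 and 2 without P10.

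Of 14 vasopressin signalling genes tested 4 (against 22.4% of all genes) were lower and 1 higher, with a median of -0.08. The higher one, the phosphodiesterase gene Pde4d, differed by 0.21 (adjusted p = 0.0447), and its call was lost when any array but P20 was left out. The kinase anchor gene Akap12 fell by 1.30 (SE 0.15, adjusted p = 0.00201), the protein kinase A subunit genes Prkar1a by 0.62 and Prkacb by 0.42, and Gnas, whose product couples receptors to adenylate cyclase, by 0.34. The receptor gene Avpr2 was above the level on none of the 6 arrays, at 8.27, 8.28 and 8.25 at P20, P30 and P90, against 8.21, 8.24 and 8.14 at P6, P8 and P10.

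The thick ascending limb, the salt pump of the concentrating mechanism, had 5 of 15 tested genes higher and none lower, with a median of 0.21. Without P6 or P10 the higher calls numbered 3, and without P20 3 genes were lower. Umod, which encodes uromodulin, the most abundant protein of urine, read 13.46, 12.98 and 13.27 at P20, P30 and P90, against 11.80, 12.35 and 12.51 at P6, P8 and P10. All later arrays were above all earlier ones, with a rise of 1.02 (SE 0.20, adjusted p = 0.00943). Egf, the growth factor made by this segment and the distal convoluted tubule, read 12.84, 12.58 and 12.87 at P20, P30 and P90, against 9.38, 9.87 and 10.30 at P6, P8 and P10, a rise of 2.92 (SE 0.22, adjusted p = 0.000952); a dimmer probe of Egf gave 0.21. Wnk4, a kinase that tunes chloride transport, rose by 0.66 (SE 0.13, adjusted p = 0.00922). Slc12a1, the NKCC2 cotransporter blocked by loop diuretics, read 13.54, 13.14 and 13.26 at P20, P30 and P90, against 12.90, 13.12 and 13.29 at P6, P8 and P10, and its difference of 0.22 (adjusted p = 0.243) did not pass. Bsnd, a chloride channel subunit, and Cldn16, a tight junction protein for magnesium, differed by -0.42 and -0.31, neither called with all 6 arrays and both called without P20 (-0.73 and -0.47).

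Thin limb and inner medulla genes had 2 of 12 higher and 3 lower, near the 17.2% and 22.4% of all genes, with a median of -0.26. Without P20 the lower calls numbered 7. Without P6, P10, P30 or P90 they numbered 1, and without P6, P8, P10 or P90 1 gene was higher. Corin, a protease that activates natriuretic peptide, fell by 1.89 (SE 0.21, adjusted p = 0.00192). Tspan8, a tetraspanin gene, was called at -0.66 (SE 0.17, adjusted p = 0.0222), and the call was lost without P6, P10, P30 or P90. Cldn11, a tight junction gene of this region, differed by -2.31 with P20 close to the earlier arrays, at 11.33, 9.25 and 8.74 at P20, P30 and P90, against 12.34, 12.05 and 11.86 at P6, P8 and P10; the call was lost without any array but P20. Nccrp1 ran the other way and rose by 0.97 (SE 0.19, adjusted p = 0.00816).

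Collecting duct principal cells, which reabsorb sodium and water, had 2 of 18 genes higher and 6 lower, against 17.2% and 22.4% of all genes. The list median was -0.32. The lower calls numbered 9 without P20, 5 without P10 and 4 without P6, P8, P30 or P90. The 3 subunits of the epithelial sodium channel parted. Scnn1a, the alpha subunit, read 9.91, 9.48 and 9.59 at P20, P30 and P90, against 8.85, 9.09 and 9.13 at P6, P8 and P10, and rose by 0.64 (SE 0.13, adjusted p = 0.0104). Scnn1b, the beta subunit, read 10.22, 9.81 and 9.57 at P20, P30 and P90, against 10.84, 10.87 and 10.98 at P6, P8 and P10, and fell by 1.03 (SE 0.16, adjusted p = 0.00421). Scnn1g, the gamma subunit, read 9.66, 9.46 and 9.39 at P20, P30 and P90, against 10.36, 10.49 and 10.30 at P6, P8 and P10, and fell by 0.88 (SE 0.09, adjusted p = 0.00184). In each subunit the groups did not overlap, as in 55.9% of all genes tested. Kcnj16, a basolateral potassium channel subunit, rose by 1.25 (SE 0.24, adjusted p = 0.00852), and St6gal1, a sialyltransferase, and Tmem45b fell by 1.64 and 1.25. Fxyd4, whose small membrane protein modulates pump activity in this segment, differed by -0.18 (adjusted p = 0.55).

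Of the sodium pump genes, Atp1b1, the beta subunit, rose by 0.52 (SE 0.10, adjusted p = 0.00705). Fxyd2, the gamma subunit of the nephron, rose by 0.68 (SE 0.09, adjusted p = 0.00297), while Fxyd6 fell by 1.25 (SE 0.20, adjusted p = 0.0045). These were the called genes among 8, against 17.2% higher and 22.4% lower over all genes, and without P20 3 were lower. Other probes of Fxyd2 gave -0.16 to 0.64. Among 16 claudins and junction genes 2 were higher and 4 lower, near the 17.2% and 22.4% of all genes. Cldn2, the leaky claudin of proximal tubule and thin limb, rose by 0.68 (SE 0.07, adjusted p = 0.00159), and Cldn5, of endothelium, fell by 1.32 (SE 0.14, adjusted p = 0.00185). Without P6, P8, P10 or P30 the lower calls of this list numbered 1, and without P6, P8, P10 or P30 the higher calls also 1. Intercalated cells, which secrete acid or base, had 3 of 10 genes higher and none lower, and without P6 or P8 1 higher, without P90 5. Slc4a1, the anion exchanger of acid-secreting cells and of red cells, read 11.19, 10.75 and 10.49 at P20, P30 and P90, against 9.90, 9.93 and 10.03 at P6, P8 and P10, and rose by 0.86 (SE 0.17, adjusted p = 0.00848). Since Hba-a1 also read highest at P20, its values above belong beside this rise; the part of blood in it was not tested.

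Genes that protect cells from high salt and urea were mixed, with 2 of 16 higher and 2 lower, against 17.2% and 22.4% of all genes, and a median of 0.15. Without P20 5 were lower, and without any other single array 1. Nfat5, which encodes the tonicity-responsive transcription factor TonEBP, read 10.68, 9.73 and 9.30 at P20, P30 and P90, against 11.89, 11.17 and 11.71 at P6, P8 and P10. It fell at each later age, by 1.69 in the mean (SE 0.36, adjusted p = 0.0111). Slc6a12, the betaine transporter, read 10.90, 9.38 and 8.95 at P20, P30 and P90, against 10.09, 10.35 and 10.14 at P6, P8 and P10. The highest and the lowest of these values were both in the later group, so the difference of -0.45 (adjusted p = 0.47) did not pass, whereas without P20 it was -1.02 (adjusted p = 0.000541). Cryab, a small heat shock protein abundant in the papilla, read 14.29, 13.16 and 13.17 at P20, P30 and P90, against 13.72, 13.41 and 13.74 at P6, P8 and P10, with a difference of -0.08 (adjusted p = 0.847), and of -0.46 without P20 (adjusted p = 0.00916). Hsph1, a large heat shock protein, and Slc9a3r1, a scaffold of the brush border, rose by 1.16 and 0.75. The taurine transporter gene Slc6a6 and the kinase gene Sgk1 differed by 0.33 and 0.12 (adjusted p = 0.205 and 0.802).

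**Figure D3:**
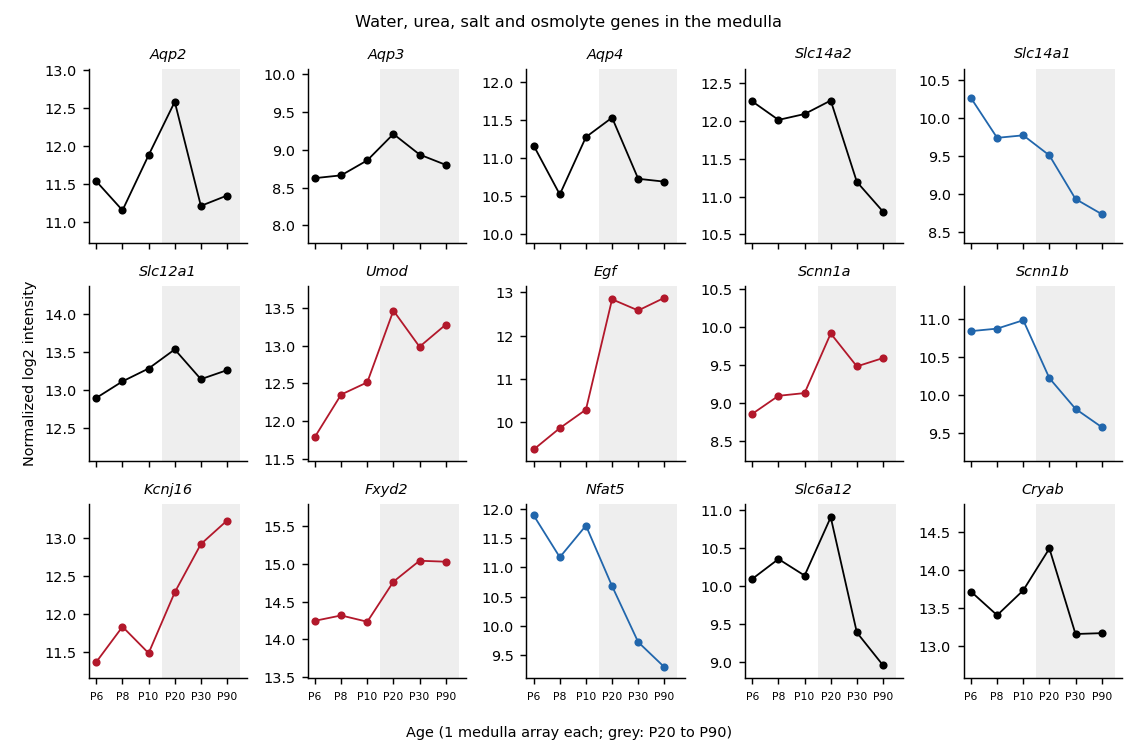
Normalized log2 intensity (vertical axes, which differ between panels) of 15 water, urea, salt and osmolyte genes on the 6 medulla arrays in order of age; grey marks P20 to P90, red lines were called higher, blue lower and black not called. Aqp2, Slc6a12 and Cryab peak at P20 (12.59, 10.90 and 14.29) and lie lower at P30 and P90, Umod and Egf are higher at all 3 later ages, and Nfat5 falls at each.

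Proximal tubule genes rose, 20 of 25 tested and none lower, with a median of 0.78 against -0.02 for all genes; 17 to 20 were called when each array was left out, and without P20 1 gene was lower. Slc22a6, the organic anion transporter OAT1, read 11.72, 12.88 and 13.02 at P20, P30 and P90, against 10.53, 10.70 and 10.30 at P6, P8 and P10, and rose by 2.03 (SE 0.33, adjusted p = 0.00496). Slc3a1, the heavy subunit of the cystine transporter, read 11.98, 12.51 and 12.62 at P20, P30 and P90, against 11.17, 11.41 and 11.36 at P6, P8 and P10, a rise of 1.06 (SE 0.17, adjusted p = 0.00477). Slc27a2, a fatty acid transporter, rose by 1.55 (SE 0.23, adjusted p = 0.00397) and the dicarboxylate transporter gene Slc13a3 by 1.43 (SE 0.14, adjusted p = 0.00158). Slc34a1, the phosphate transporter of the convoluted segment, rose by 0.99 (adjusted p = 0.00839), and Slc5a2, the glucose transporter of the earliest segment, differed by 0.69 with overlapping groups (adjusted p = 0.0639). Slc5a2 was called without P8 (0.97, adjusted p = 0.0172) and without P20 (0.74, adjusted p = 0.0442). Slc34a1 read 13.81, 14.53 and 14.51 at P20, P30 and P90, against 13.27, 13.37 and 13.24 at P6, P8 and P10. For Slc5a2 the values in the same order were 11.47, 11.86 and 11.38, against 10.63, 11.44 and 10.57. Both genes were above the level on all 6 medulla arrays, and the part of cortex in these values was not tested. Added up on the linear scale, the 27 proximal tubule genes on the array gave 148656 to 198585 at P20 to P90 and 86382 to 97915 at P6 to P10, and 24 to 25 of them were above the level on each array. Podocyte markers, which belong to cortex, summed to 5784 to 9132 over 10 genes at P20 to P90 and 26930 to 30096 at P6 to P10, with 5 to 6 genes above the level at the later and 8 at the earlier ages. Cdkn1c, which fell by 3.95, is 1 of the 10 and made up most of the earlier sums, so the drop in the sum is largely that of this gene. Of 9 podocyte genes tested 5 were lower and none higher, with a median of -0.57. The podocyte gene Nphs1 read 8.34, 8.39 and 8.23 at P20, P30 and P90, against 8.43, 8.47 and 8.39 at P6, P8 and P10. How much the dissection plane moved between ages was not tested.

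Organic ion transporters, the secretory route for drugs and urate, had 9 of 11 genes higher and none lower, with a median of 0.75. This count became 3 without P6, P8, P10 or P30. Slc22a2, the cation transporter OCT2, read 10.65, 11.52 and 11.45 at P20, P30 and P90, against 9.34, 9.43 and 9.51 at P6, P8 and P10, and rose by 1.78 (SE 0.22, adjusted p = 0.00252). The groups were separate, as they were for Slc22a12 among the largest rises and for 55.9% of all genes tested. Androgen-responsive kidney genes had 8 of 12 higher and none lower, with a median of 2.63; the count was 4 without P6, 5 without P8, P10, P30 or P90 and 12 without P20. Kap, the kidney androgen-regulated protein, read 14.19, 14.64 and 14.57 at P20, P30 and P90, against 13.13, 13.23 and 13.53 at P6, P8 and P10, and rose by 1.17 (SE 0.15, adjusted p = 0.00273). Among glutathione and xenobiotic genes 10 of 19 were higher and 2 lower; the lower calls numbered 6 without P20 and 1 without P6, P8, P10 or P90. The rises were led by Ephx2, an epoxide hydrolase (2.15, SE 0.43, adjusted p = 0.00935), Gstm1 (1.73, SE 0.23, adjusted p = 0.00284) and the glutathione peroxidase gene Gpx1 (1.02, SE 0.13, adjusted p = 0.00267).

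Energy metabolism genes rose in several lists. Oxidative phosphorylation had 13 of 19 genes higher and none lower (median 0.40), and the tricarboxylic acid cycle 10 of 15 and none lower (median 0.48). Ndufv1, a core subunit of complex I, read 12.97, 13.18 and 13.32 at P20, P30 and P90, against 12.35, 12.47 and 12.48 at P6, P8 and P10, and rose by 0.72 (SE 0.10, adjusted p = 0.00341), a small and even step. Sdhb of complex II rose by 0.66 (adjusted p = 0.00187), Cox7a2 of complex IV by 0.70 (adjusted p = 0.0043), and the cycle enzyme genes Ogdh by 0.75 (adjusted p = 0.00525) and Mdh1 by 0.65 (adjusted p = 0.00258). Fatty acid oxidation had 10 of 15 higher and 2 lower (median 0.45), with 6 higher without P8, P10 or P30, none lower without P6, P10 or P30 and 1 lower without P8 or P20. Acadm, the medium-chain acyl-CoA dehydrogenase, read 12.40, 13.77 and 13.56 at P20, P30 and P90, against 11.24, 11.44 and 11.59 at P6, P8 and P10, and rose by 1.82 (SE 0.34, adjusted p = 0.00739), and the peroxisomal gene Ehhadh rose by 2.01 (SE 0.44, adjusted p = 0.0122).

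Glycolysis, on which the inner medulla relies, was mixed, with 2 of 14 genes higher and 3 lower and a median of 0.07. These counts are near the shares over all genes, 17.2% higher and 22.4% lower. Pfkl, a phosphofructokinase, fell by 0.91 (SE 0.18, adjusted p = 0.00956), and Ldhb, the lactate dehydrogenase subunit of oxidative tissue, rose by 0.35 (SE 0.06, adjusted p = 0.00722); without P6, P8, P10 or P30 1 gene of the list was lower and without P20 5, and without P6, P8, P10 or P90 1 was higher. Hypoxia-responsive genes also split, 3 of 11 higher and 3 lower, against 17.2% and 22.4% of all genes. Ndrg1 rose by 0.99 (SE 0.11, adjusted p = 0.00184) and Pdk1, which keeps pyruvate out of mitochondria, fell by 0.88 (SE 0.12, adjusted p = 0.00311). Cholesterol synthesis had 7 of 11 higher and none lower (median 0.40). Cyp51, a demethylase of the sterol pathway, read 11.35, 12.06 and 12.41 at P20, P30 and P90, against 10.28, 10.18 and 10.08 at P6, P8 and P10, and rose by 1.76 (SE 0.25, adjusted p = 0.00342).

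Cell cycle genes fell, 20 of 24 tested and none higher, with a median of -0.87, and leaving out any array left 19 or 20. Prc1, shown above, read 9.35, 9.36 and 8.12 at P20, P30 and P90, against 10.51, 10.80 and 10.65 at P6, P8 and P10, and fell by 1.71 (SE 0.32, adjusted p = 0.00774). Cdk1 read 8.63, 8.75 and 8.05 at P20, P30 and P90, against 9.66, 9.84 and 9.68 at P6, P8 and P10, and fell by 1.25 (SE 0.18, adjusted p = 0.00357). Both genes held a middle level at P20 and P30 and were lowest at P90. Mcm5 and Mcm4, of the helicase that opens replication origins, fell by 1.49 and 1.26 (adjusted p = 0.00799 and 0.00347), and Nusap1, a spindle gene, by 1.37 (adjusted p = 0.00159). Ccnd2, cyclin D2, fell by 2.41 (SE 0.15, adjusted p = 0.000583), already at P20, where it read 9.99, against 12.14, 11.97 and 12.08 at P6, P8 and P10.

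Inhibitors of the cell cycle did not run one way, with 3 of 10 higher and 2 lower, against 17.2% and 22.4% of all genes. Without P20 4 were lower, and without P6, P8 or P90 2 were higher. Beside Cdkn1c, Cdkn1a, which encodes p21, fell by 1.20 (SE 0.22, adjusted p = 0.00686), while Ccng1 and Gadd45g, both induced by stress, rose by 0.85 and 0.84 (adjusted p = 0.00695 and 0.00367). Histone genes divided as well, with 7 of 16 higher and 6 lower. H2ac6, H2ac23 and H2ac13, which encode H2A, fell by 2.87, 2.71 and 2.68, whereas H2bc11, H2bc13 and H2bc4, which encode H2B, rose by 1.22, 1.16 and 1.12 (adjusted p = 0.00493, 0.00604 and 0.00357). H2ac6 read 10.68, 9.92 and 9.20 at P20, P30 and P90, against 12.54, 12.96 and 12.91 at P6, P8 and P10. Copies within each histone family are nearly identical, so the probes may not tell them apart. Translation genes fell in 7 of 14 and rose in none, with a median of -0.23 and 4 lower without P6 or P8. Eef1a1, the elongation factor that brings tRNA to ribosomes, fell by 0.55 (SE 0.07, adjusted p = 0.00244).

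Most matrix genes fell. Of 24 extracellular matrix genes tested 21 were lower and none higher, with a median of -1.32, and 19 to 22 were lower when each array was left out. Col1a1, a chain of fibrillar collagen I, read 9.85, 9.17 and 8.42 at P20, P30 and P90, against 11.84, 11.70 and 11.48 at P6, P8 and P10, and fell by 2.52 (SE 0.33, adjusted p = 0.00277). Col3a1, of collagen III, read 9.02, 8.75 and 7.995 at P20, P30 and P90, against 10.94, 10.37 and 10.45 at P6, P8 and P10, and fell by 1.997 (SE 0.28, adjusted p = 0.00325). The fibronectin gene Fn1 fell by 1.87 (SE 0.16, adjusted p = 0.0012), Col15a1 fell by 2.45, Col6a1 fell by 2.09 and the proteoglycan gene Dcn fell by 1.76. Of 15 basement membrane genes 10 were lower and none higher (median -1.09), among them Col4a1 and Col4a2, which form the ubiquitous collagen IV network (-1.97 and -1.63, adjusted p = 0.0093 and 0.00721), and the linker gene Nid1 (-1.92, adjusted p = 0.00482). Of 14 genes of matrix turnover 10 were lower and 1 higher (median -0.53). That one was Timp3, an inhibitor of metalloproteases bound to matrix, which read 13.12, 13.59 and 13.60 at P20, P30 and P90, against 12.35, 12.37 and 12.14 at P6, P8 and P10, and rose by 1.15 (SE 0.14, adjusted p = 0.00251), while the membrane metalloprotease gene Mmp14 fell by 1.71.

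Developing stroma had 13 of 17 genes lower and none higher, with a median of -0.94. Pdgfra, a receptor of fibroblasts, read 10.30, 9.73 and 9.22 at P20, P30 and P90, against 11.86, 11.88 and 11.75 at P6, P8 and P10, and fell by 2.08 (SE 0.25, adjusted p = 0.00231). Penk, which encodes proenkephalin and marks medullary stroma of the developing mouse kidney, read 7.78, 8.03 and 7.82 at P20, P30 and P90, against 9.78, 9.51 and 9.24 at P6, P8 and P10. It was above the level at no later age, so it was at least 2.27-fold lower at P20 to P90 than the mean of the earlier arrays (log2 difference -1.63, SE 0.14, adjusted p = 0.00126). Smooth muscle and pericyte genes were lower in 8 of 9 and higher in none (median -0.57; 5 lower without P6), with Mcam and Notch3 at -0.82 and -0.71 beside Acta2. Smoc2, which encodes a matrix protein and is in the stroma list, read 10.16, 9.23 and 8.61 at P20, P30 and P90, against 10.79, 10.91 and 11.29 at P6, P8 and P10, with a fall of 1.67 (SE 0.37, adjusted p = 0.0128). The intermediate filament gene Vim fell by 2.25 (SE 0.23, adjusted p = 0.00175).

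Wnt signals pattern the medullary stroma and papilla, and 13 of 16 tested genes of the pathway were lower and none higher, with a median of -0.60; without P6 or P30 the lower calls numbered 6. Apcdd1, a Wnt target and inhibitor, read 8.41, 8.17 and 7.88 at P20, P30 and P90, against 11.08, 10.57 and 10.32 at P6, P8 and P10, and fell by 2.50 (SE 0.22, adjusted p = 0.00118). The secreted antagonist Sfrp1 fell by 1.59 (SE 0.24, adjusted p = 0.004), Dkk3 by 1.42 (SE 0.14, adjusted p = 0.00155) and the target gene Axin2 by 0.68 (SE 0.10, adjusted p = 0.00364). Of the ligands, Wnt5a, Wnt9b and Wnt4 were called at -1.13, -0.90 and -0.64, each lost without P6 or P30, and Wnt7b, which drives papilla growth, differed by -0.41 (adjusted p = 0.0917). Wnt7b was called without P20 (-0.53, adjusted p = 0.0173). Of 24 Hedgehog, BMP, TGF beta and Notch genes 12 were lower and 2 higher (median -0.34), or 1 higher without P6, P8, P10 or P30; the TGF beta target Tgfbi fell by 2.18 (SE 0.19, adjusted p = 0.00118) and the ligand gene Tgfb2 by 1.26 (SE 0.10, adjusted p = 0.000952).

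**Figure D4:**
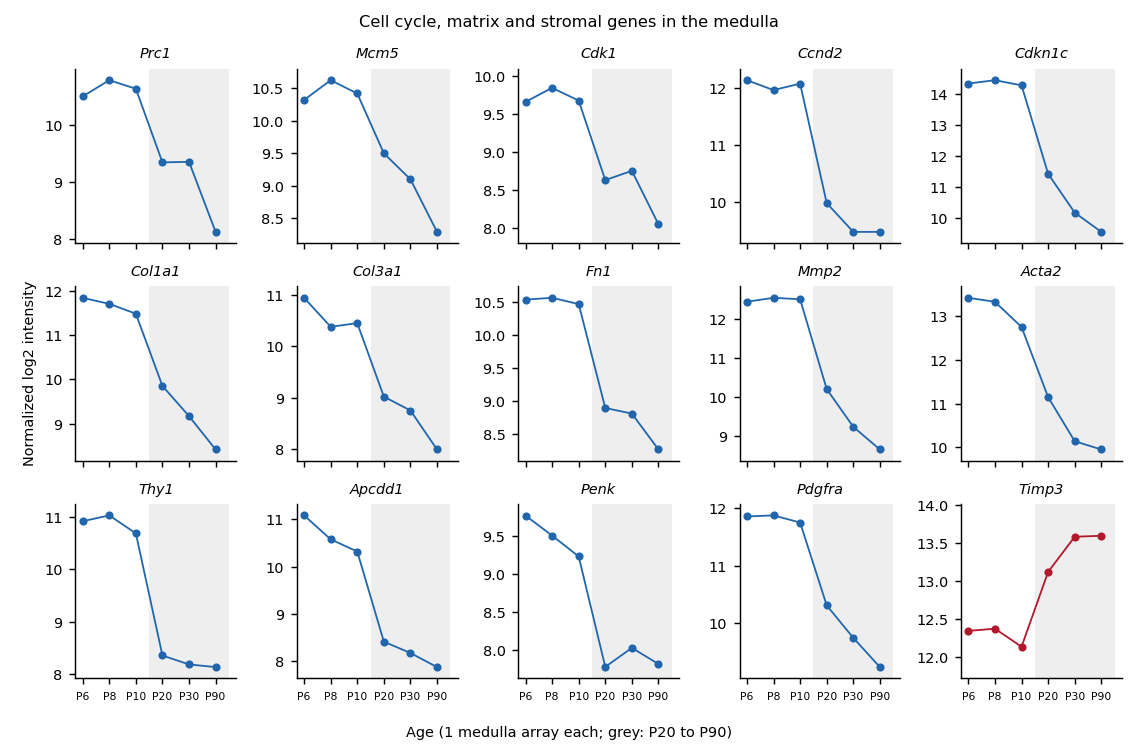
Normalized log2 intensity (vertical axes, which differ between panels) of 15 cell cycle, matrix and stromal genes on the 6 medulla arrays in order of age; grey marks P20 to P90, blue lines were called lower and red higher. From Prc1 (-1.71) to Pdgfra (-2.08) 14 genes lie lower at every later age, and Timp3 alone in this selection is higher, by 1.15.

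Imprinted and fetal growth genes were lower in 10 of 14 tested and higher in none (median -0.94), or in 1 without P20: beside Cdkn1c, Igf2 fell by 2.78, Gpc3 fell by 2.62, Ndn fell by 2.14 and Mest fell by 1.87. Of 12 nephron progenitor genes 4 were lower, among them Wt1 (-0.83), and Lhx1 was higher (0.52, a call lost without P8); without P6, P10 or P30 the lower calls numbered 2, and without P30 2 genes were higher. Among 20 genes of IGF and other growth factors 4 were higher and 6 lower, with Egf highest and Igfbp2, an IGF-binding protein, at -1.95 (SE 0.18, adjusted p = 0.00149), Pdgfa at -1.48 and the receptor gene Fgfr2 at -1.48. Without P8 or P10 2 were higher, and without P20 9 were lower. The nephron progenitor and growth factor counts stand against 17.2% higher and 22.4% lower over all genes.

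Endothelial genes, vasa recta included, were lower in 10 of 22 and higher in none, with a median of -0.49. This count rested on single arrays: it was 4 without P6, P10 or P30, 5 without P8 or P90 and 20 without P20. Cdh5, the cadherin of endothelial junctions, read 9.37, 8.96 and 8.67 at P20, P30 and P90, against 10.23, 10.18 and 9.85 at P6, P8 and P10, and fell by 1.09 (SE 0.19, adjusted p = 0.00569). Sox17 and Aplnr, of arterial and growing vessels, fell by 0.81 and 0.78 (adjusted p = 0.00421 and 0.00391), and Vegfa differed by -0.03 (adjusted p = 0.829). Local vessel regulators were led by opposite changes. Gucy1a1, a subunit of the nitric oxide receptor of pericytes and smooth muscle, read 10.28, 9.98 and 9.55 at P20, P30 and P90, against 12.35, 12.12 and 12.10 at P6, P8 and P10, and fell by 2.25 (SE 0.18, adjusted p = 0.00104). Nt5e, the enzyme CD73 that makes adenosine, read 9.91, 11.23 and 10.87 at P20, P30 and P90, against 8.63, 8.74 and 8.77 at P6, P8 and P10, and rose by 1.96 (SE 0.31, adjusted p = 0.00453). In this list of 10 genes 2 were higher and 5 lower; without P6 1 was lower, without P10 2, and without P8, P30 or P90 3. Prostaglandin genes had 2 of 11 lower (22.4% over all genes) and none higher, or 4 lower and 1 higher without P20. The prostaglandin D synthase gene Ptgds fell by 1.31 (SE 0.12, adjusted p = 0.00146) and the prostacyclin synthase gene Ptgis by 0.69 (SE 0.10, adjusted p = 0.0033).

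Steroid-response genes ran both ways, and few clock genes were called. Of 12 steroid-response genes 5 were higher and 3 lower (median 0.21). Hsd11b1, which regenerates active glucocorticoid, read 11.97, 12.63 and 12.73 at P20, P30 and P90, against 10.12, 10.47 and 10.49 at P6, P8 and P10, and rose by 2.08 (SE 0.21, adjusted p = 0.00169). Fkbp5, Klf9 and Klf15 of the same list rose by 1.14, 1.03 and 0.92 (adjusted p = 0.00755, 0.00221 and 0.00617). The metallothionein gene Mt1, 1 of the 3 lower genes of this list, fell by 1.34 (SE 0.26, adjusted p = 0.00817). Hsd11b2, which inactivates glucocorticoid in principal cells, differed by 0.26 (adjusted p = 0.339). Clock rose by 0.58 (SE 0.10, adjusted p = 0.0064), 1 of 2 higher genes among 10 of the circadian list, near the 17.2% of all genes. In this list 1 was higher without P6, P8, P10 or P90 and 1 lower without P20. The hour of tissue collection is not given in the sources used here. Renin-angiotensin genes had 3 of 6 higher and none lower, but 1 without P6, P8, P10 or P30; Agt, angiotensinogen, rose by 0.38 (SE 0.08, adjusted p = 0.014). Among 15 potassium, magnesium and calcium channel genes 7 were higher and none lower, or 1 lower without P20, led by Kcnj15 (1.28, SE 0.22, adjusted p = 0.00597), Kcnj16 (1.25) and Kcnk5, an acid-sensitive potassium channel (1.06, SE 0.20, adjusted p = 0.00742).

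The immune lists held few calls with all 6 arrays. Cd74, the invariant chain of antigen-presenting cells, read 9.51, 9.90 and 10.43 at P20, P30 and P90, against 8.52, 8.61 and 8.66 at P6, P8 and P10, and rose by 1.35 (SE 0.21, adjusted p = 0.00463); it was the one higher gene of 10 in the macrophage and dendritic cell list, where Mrc1 fell by 0.58 (SE 0.08, adjusted p = 0.00307) and 2 genes were lower without P20. Of 6 MHC class II genes 3 were higher and none lower, or 1 lower without P6. Of 10 class I genes 2 were higher, or 5 without P20 and 1 without P6, P8 or P10. Over all genes tested 17.2% were higher and 22.4% lower. Lcn2, the siderophore-binding protein NGAL, read 9.90, 9.19 and 8.87 at P20, P30 and P90, against 10.91, 11.04 and 11.53 at P6, P8 and P10, and fell by 1.84 (SE 0.28, adjusted p = 0.00414); Clu, clusterin, fell by 1.08 (SE 0.11, adjusted p = 0.00184). Lpl, lipoprotein lipase, rose by 1.84 (SE 0.16, adjusted p = 0.0012), while the fat cell gene Adipoq was above the level on 1 of 3 later and 1 of 3 earlier arrays and Fabp4 on none. The 10 fat cell genes, Lpl among them, summed to 8336 to 11518 at P20 to P90 and 4792 to 5751 at P6 to P10, with 3 to 4 above the level on each array. Of the 5 tested Lpl was the 1 called, with a list median of 0.21, and without P20 2 were higher. The part of Lpl in the sums was not tested.

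The 3 later ages were not alike. Of the 1527 genes called higher, 675 (44.2%) climbed from P20 through P30 to P90, against 21.0% of the 5376 genes not called, and 1124 had their lowest later value at P20. Of the 1998 called lower, 1095 (54.8%) descended through those ages, against 23.7% of genes not called. At P20 the median gene called higher had reached 0.619 of its P90 difference from the earlier mean, and the median gene called lower 0.640. Among genes called and at least 2-fold, 145 of 241 higher genes (60.2%) kept climbing and 228 of 276 lower genes (82.6%) kept descending. The calls were chosen on these same values, so the shares among called genes are a description.

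Whether the medulla changed otherwise than the cortex was tested as the difference between the 2 changes, with cortex arrays of the same 6 ages and age as a block. It was called for 883 genes (9.92%), above 0 for 450 (5.06%) and below 0 for 433 (4.86%); without the age block 75 were called. Each age pairs a medulla and a cortex array, and the count was 441 without P6, 344 without P8, 439 without P10, 1299 without P20, 413 without P30 and 561 without P90. Of 15 thick ascending limb genes 9 had a difference above 0 and none below, with a median of 0.40 against 0.00 for all genes, and 4 without P6, 5 without P10 or P30 and 2 without the age block. For Slc12a1 the change was 0.22 in medulla and -1.43 in cortex, a difference of 1.64 (adjusted p = 0.00014). In Umod the change was 1.02 in medulla and 0.25 in cortex, a difference of 0.76 (adjusted p = 0.0022), and in Slc4a1 0.86 in medulla and -0.48 in cortex, a difference of 1.34 (adjusted p = 0.00014); neither was called without the age block (adjusted p = 0.212 for Umod and 0.0734 for Slc4a1). Ammonia and acid transport had 8 of 13 above 0 and none below, oxidative phosphorylation 8 of 19 and fatty acid oxidation 8 of 15, likewise none below. Leaving out each age gave 5 (P8, P10 or P30) to 10 genes for ammonia and acid transport, 3 (P10 or P30) to 11 for oxidative phosphorylation, with 1 below 0 without P90, and 3 (P6 or P30) or 4 (P8, P10 or P90) to 9 for fatty acid oxidation. Without the age block the counts of these 3 lists were 1, 2 and 1.

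Below 0 were 8 of 24 matrix genes and 8 of 16 Wnt genes, with none above. Leaving out each age gave 5 (P8, P10 or P30) to 11 matrix genes and 2 (P8), 4 (P6) or 5 (P10) to 10 Wnt genes, and the fit without the age block 1 and 2. Apcdd1 changed by -2.50 in medulla and -0.03 in cortex, a difference of -2.48 (adjusted p = 0.00014). Cxcl14, a chemokine, changed by -2.27 in medulla and -0.15 in cortex (difference -2.12, adjusted p = 0.00014), Igfbp2 by -1.95 in medulla and 0.05 in cortex (-1.995, adjusted p = 0.00019), and Thy1 by -2.65 in medulla and -0.52 in cortex (-2.14, adjusted p = 0.00031). Htra3 changed by -3.16 in medulla and -1.25 in cortex. Spink8, a protease inhibitor, read 11.46, 11.10 and 9.66 at P20, P30 and P90, against 12.43, 11.56 and 12.12 at P6, P8 and P10. Its change was -1.30 in medulla (adjusted p = 0.0638) and 0.86 in cortex. The medulla change of Spink8 was called without P20 (-1.66, adjusted p = 0.00945). Of the differences above 0, Serpina1f, a serpin gene, was the largest. It read 9.92, 11.14 and 10.79 at P20, P30 and P90, against 8.02, 8.03 and 8.06 at P6, P8 and P10. The mean of its later arrays was at least 5.02-fold higher. It changed by 2.58 in medulla and 0.51 in cortex (difference 2.07, adjusted p = 0.0006). Proximal tubule genes were higher in medulla by a median of 0.78 and in cortex by a median of 0.46, and 8 of 25 had a called difference, all above 0; without P8, P10 or P30 5 did, without P20 13 above and 1 below 0, and without the age block 1. Cell cycle genes fell in both regions, with medians of -0.87 in medulla and -0.74 in cortex and 3 of 24 called differences, below 0, or 1 without P8, without P30, without the age block or with the mean of kept probes.

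**Figure D5:**
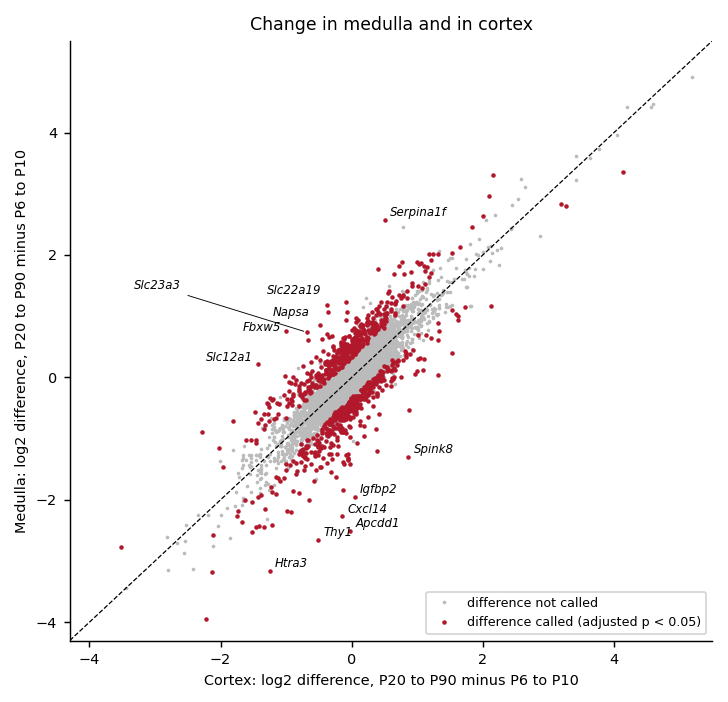
Log2 difference between P20 to P90 and P6 to P10 in the medulla (vertical axis) against the same in the cortex (horizontal axis), 1 point per gene; red points are the 883 genes whose difference between regions was called, and the dashed line marks equal change. Slc12a1 lies above the line, at 0.22 in medulla and -1.43 in cortex, and Apcdd1 lies below it, at -2.50 in medulla and -0.03 in cortex.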

How the data were processed

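RNA from dissected renal medulla and cortex of male CD1 mice was extracted with RNeasy, checked on a Bioanalyser, pooled from 4 animals per array and labelled with MessageAmp, per the labels and the series' design text, which name lumi and limma for the authors' processing. The file used holds log2 intensities, normalized by the authors before they were deposited; the background correction and normalization method are not given in the sources used here. They run from 7.01 to 15.83. A second deposited table has 36 columns of values whose headers match no sample label, and it was not used. The number of arrays limits the precision, and with no array repeated, p-values measure the spread between ages.

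Of 46630 probes, 29975 carry 1 gene symbol, 10 several and 16645 none in the platform table; 29920 Entrez IDs matched RefSeq, and 17711 genes were named. Probes above their array's 75th percentile on at least 3 of 18 arrays were kept, and the brightest stood for its gene (8901 genes, 2007 with several kept probes). P20, P30 and P90 were compared with P6, P8 and P10 by lmFit and eBayes in limma 3.58.1 (R 4.3.3), with Benjamini-Hochberg adjustment over the 8901 genes and calls at an adjusted p below 0.05. The difference between regions was the region by stage coefficient over 12 arrays with age as a block. Age pairs the regions by label, and residuals of the 2 regions at an age correlated at 0.132 to 0.741. Both fits were also run on simulated data with independent noise and no trend of age. Those runs do not test the fits under the age differences within groups seen here. Where a gene was above the level on no array of a group, the fold is given as a lower bound, from the mean of the other group against the array levels.

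Genes were named by rule: the 15 largest called differences each way with groups that do not overlap, the 6 largest called differences between regions each way, and up to 5 called members of a list, or the member with the smallest p. Other list members were named after their values were seen. The members, the 60 lists (1016 genes, 898 on the array, 660 tested) and the motifs were chosen with earlier results of these data known. Alternatives were other probe rules, filters, scalings, array weights, variance trend and arrays in the fit, P8 alone as the earlier group, and each array left out in turn. P8 alone was set on the premise that Ucp1, a brown fat gene, was high on the other early arrays; in medulla it read 9.02 at P6, 9.55 at P8 and 10.87 at P10, so P8 was not the lowest. Lists were counted and not tested as sets. A promoter comparison of another list is not reported here.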

Additional observations from a re-analysis of the deposited data

Results flagged for a closer look

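The 12 largest differences in change between medulla and cortex were tested as an interaction in limma with age as a block. Above 0, as medulla minus cortex on the log2 scale, were Serpina1f (2.07), Fbxw5 (1.753), Slc12a1 (1.64), Slc22a19 (1.56), Napsa (1.43) and Slc23a3 (1.41). Below 0 were Apcdd1 (-2.48), Spink8 (-2.16), Thy1 (-2.14), Cxcl14 (-2.12), Igfbp2 (-1.995) and Htra3 (-1.91). Fbxw5, a gene of ubiquitin ligases, read 9.95, 10.09 and 10.09 in medulla at P20, P30 and P90, against 8.76, 9.03 and 10.07 at P6, P8 and P10, so that P10 was already at the later level; its difference between regions was not called without P6, P8 or P30 (adjusted p = 0.0872, 0.118 and 0.0976). Napsa, which encodes the protease napsin A, changed by 1.06 in medulla and -0.37 in cortex, and Slc22a19, an organic anion transporter gene, by 1.18 in medulla and -0.37 in cortex. Slc23a3 changed by 0.74 in medulla and -0.68 in cortex. Among these 12 genes the calls of Fbxw5, Napsa and Spink8 were lost without the age block (adjusted p = 0.229, 0.102 and 0.0847).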

How the results depend on the processing

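The change in medulla was called for 3525 genes in all and for 517 at least 2-fold. Array weights called 5448 (2486 higher), with a weight of 0.24 for P20 and 4.46 for P30. With P8 alone as the earlier group 4 genes were called, 2 higher and 2 lower, with 2173 at an unadjusted p below 0.05; that fit has 1 earlier array, whose spread is assumed to be that of the later ones. Leaving out each array gave 2122 to 4571 genes, 846 to 2000 higher and 1226 to 2571 lower. Every kept probe, the mean of probes, no filter, another filter, quantile, median and cyclic loess scaling, an intensity trend and fits with 9 or 18 arrays kept the total within 1.5 times of 3525. No gene named in the report had a called difference that turned its sign in these fits, each of which took its brightest probe or the mean of its probes; single other probes can differ in sign, as for Fxyd2 (-0.16). Of 243 named genes called in the medulla, 184 kept the call in all 6 fits with 1 array left out and 59 lost it in at least 1. For the difference between regions, the fit with no replicate block for age called 75 genes, 29 above and 46 below 0, against 883 (the cause was not tested for these or the other changed counts), and leaving out each age gave 344 to 1299 genes, 197 to 695 above and 147 to 604 below 0. Arrays of 4 pooled animals, 1 per age, give no spread between animals. Genes above the array level of 8.28 to 8.37 on fewer than 3 of 18 arrays were not among the 8901 tested.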
